A study of Mus musculus with 13 samples.

Results

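Of 16911 OLIG2 called peaks in newly formed oligodendrocytes (NFOs), 14787 (87.4%) shared no base with an OLIG2 peak of oligodendrocyte precursor cells (OPCs) or with an NFO H3K4me3 peak. These are the NFO-only OLIG2 peaks without H3K4me3, and the name says only which lists they do not overlap. The peaks were chosen on measured values, namely the NFO and OPC OLIG2 calls and the NFO H3K4me3 calls. Their OLIG2 enrichment, their absence from OPC peaks and their lack of NFO H3K4me3 are therefore descriptions, and so is their position to promoters, which H3K4me3 marks. Sequence content, H3K27me3 in each stage and H3K4me3 in the earlier stages were not used to choose them. The last is still not independent of the rule, which uses H3K4me3 in NFOs.

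The libraries used here map OLIG2 in OPCs and NFOs, and H3K4me3 and H3K27me3 in neural stem cells (NSCs), OPCs and NFOs, by ChIP-Seq, to follow chromatin binding along the oligodendrocyte lineage. OLIG2 binding in NSCs was also part of the study and was not analysed here, so NFO-only means absent from the OPC list alone. OPCs and NFOs were immunopanned from C57BL/6 brains taken on postnatal day 7, OPCs on anti-PDGFRα plates and NFOs on anti-GalC plates, after microglia and endothelial cells had been depleted on a lectin. NSCs came from E14.5 embryonic cortex, which the growth protocol assigns to CD-1 mice and the strain label to C57BL/6. By the paper's methods, the NSCs were purchased and then cultured and passaged in medium with EGF and FGF. OPCs and NFOs were acutely purified, so stage and culture cannot be told apart between NSCs and the other cells. No other treatment is given, and the labels give no genetic change. Each stage and antibody had 1 library, so no comparison between stages has a replicate and none was tested. For the histone libraries, antibody label and title name opposite marks, and marks were assigned by title. With peak lists alone, read depth is unknown.

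OLIG2 is a basic helix-loop-helix transcription factor that pairs with E proteins and binds E-box sequences, and it is needed for oligodendrocytes to form. H3K4me3 is laid down at the start sites of active or poised genes. H3K27me3 is the mark of the Polycomb repressive complex and is spread over silenced developmental genes such as the Hox clusters. Sites away from promoters can be enhancers, which other marks identify, and no such mark was used here.

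The sequences below show what recurred within the peaks. All are from the + strand of mm10 (GRCm38, NCBI RefSeq genome), each over the whole listed peak. The first set holds peaks among the 10 with the highest fold enrichment, and peaks at Bcas1, Cldn11 and Srebf2 to show genes of myelin and cholesterol synthesis. Capitals mark unbroken runs of 10 or more A or T within 100 bp of the peak centre; E-boxes in this set stay in lower case.
Zfp292, chr4:34834853-34835088: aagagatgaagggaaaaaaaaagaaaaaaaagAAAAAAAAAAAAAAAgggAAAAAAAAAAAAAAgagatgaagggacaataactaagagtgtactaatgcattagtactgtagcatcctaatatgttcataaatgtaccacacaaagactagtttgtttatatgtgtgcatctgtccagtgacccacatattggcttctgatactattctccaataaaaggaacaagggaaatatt
Mb21d2, chr16:29054410-29054645: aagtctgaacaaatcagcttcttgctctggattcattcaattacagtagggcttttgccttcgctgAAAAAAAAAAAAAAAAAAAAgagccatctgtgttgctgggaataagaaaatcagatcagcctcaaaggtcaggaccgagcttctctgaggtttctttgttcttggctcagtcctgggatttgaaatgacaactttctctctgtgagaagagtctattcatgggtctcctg
Abat, chr16:8595299-8595534: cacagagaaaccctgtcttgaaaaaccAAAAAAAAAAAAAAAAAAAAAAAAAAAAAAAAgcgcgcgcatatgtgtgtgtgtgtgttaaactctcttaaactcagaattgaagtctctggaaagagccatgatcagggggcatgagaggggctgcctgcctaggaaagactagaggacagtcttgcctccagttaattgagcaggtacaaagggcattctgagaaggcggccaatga
Ankrd52, chr10:128374519-128374754: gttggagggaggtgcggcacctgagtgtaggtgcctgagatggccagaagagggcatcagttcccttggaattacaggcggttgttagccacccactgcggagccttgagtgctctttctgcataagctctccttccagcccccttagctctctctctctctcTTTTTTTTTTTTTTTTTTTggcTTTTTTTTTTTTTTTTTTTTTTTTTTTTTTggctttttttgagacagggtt
Gm11690, chr11:114230016-114230251: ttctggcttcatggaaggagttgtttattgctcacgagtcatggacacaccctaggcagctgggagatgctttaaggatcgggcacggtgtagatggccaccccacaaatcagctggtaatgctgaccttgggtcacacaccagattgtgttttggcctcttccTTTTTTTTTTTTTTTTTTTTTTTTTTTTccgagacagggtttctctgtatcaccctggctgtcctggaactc
Bcas1, chr2:170427958-170428193: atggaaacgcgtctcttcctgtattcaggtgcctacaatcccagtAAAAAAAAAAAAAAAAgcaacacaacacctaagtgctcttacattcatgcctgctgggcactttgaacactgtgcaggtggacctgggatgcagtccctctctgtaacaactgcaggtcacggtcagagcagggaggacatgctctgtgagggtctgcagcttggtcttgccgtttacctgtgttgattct
Cldn11, chr3:31155084-31155319: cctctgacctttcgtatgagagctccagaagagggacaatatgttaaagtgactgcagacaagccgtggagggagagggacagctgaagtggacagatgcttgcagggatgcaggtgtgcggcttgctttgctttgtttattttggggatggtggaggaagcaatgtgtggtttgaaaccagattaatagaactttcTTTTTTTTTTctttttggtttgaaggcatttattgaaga
Srebf2, chr15:82150259-82150494: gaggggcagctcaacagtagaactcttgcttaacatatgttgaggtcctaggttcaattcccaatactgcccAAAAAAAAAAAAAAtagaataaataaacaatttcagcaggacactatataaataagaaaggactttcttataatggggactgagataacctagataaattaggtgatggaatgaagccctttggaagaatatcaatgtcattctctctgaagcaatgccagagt

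The runs of A in this set lay to the left of the peak centre and the runs of T to the right of it. The second set shows peaks with an E-box, given in capitals as CAGCTG or as CAGATG, whose reverse complement is CATCTG. It holds the most enriched peak of all, near Adap2, and 3 run-free peaks above 20-fold with an E-box. Run-free means no run within 100 bp of the centre, and the T run that ends the last sequence lies farther out. The Adap2 peak has a run of 36 A within 100 bp of its centre, outside its listed 112 bp.
Adap2, chr11:80148373-80148484: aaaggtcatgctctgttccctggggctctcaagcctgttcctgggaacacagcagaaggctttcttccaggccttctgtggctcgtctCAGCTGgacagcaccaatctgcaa
Gm52440, chrX:38636705-38636940: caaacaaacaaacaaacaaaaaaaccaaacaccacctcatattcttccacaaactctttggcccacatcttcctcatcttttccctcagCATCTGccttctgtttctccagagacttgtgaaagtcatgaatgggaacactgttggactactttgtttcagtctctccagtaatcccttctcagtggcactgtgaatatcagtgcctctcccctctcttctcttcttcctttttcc
6330411D24Rik intron, chr4:142866732-142866967: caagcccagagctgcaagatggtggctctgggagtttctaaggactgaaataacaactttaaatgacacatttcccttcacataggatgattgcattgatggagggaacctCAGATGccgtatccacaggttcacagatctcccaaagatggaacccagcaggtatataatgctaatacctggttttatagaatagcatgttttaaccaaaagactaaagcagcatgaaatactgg
Gm46030 and Col4a2, chr8:11335967-11336202: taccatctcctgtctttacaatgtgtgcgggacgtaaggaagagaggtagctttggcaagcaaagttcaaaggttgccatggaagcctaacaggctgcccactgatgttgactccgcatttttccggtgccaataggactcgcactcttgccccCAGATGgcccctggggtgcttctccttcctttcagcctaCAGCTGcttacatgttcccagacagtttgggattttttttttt

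An A or T run of 10 or more bases lay within 100 bp of the centre in 9458 of the 14787 peaks (64.0%, 95% exact binomial interval 63.2 to 64.7). Of all 201-bp windows of the genome, 4.26% held such a run. Runs of 15 or more were present in 43.1% of the peaks against 1.23% of windows, and runs of 20 or more in 16.6% against 0.503%. Intervals here and throughout cover counting error only, and neighbouring peaks are not independent. The share was no feature of these peaks alone: it was 74.6% in NFO-only peaks with H3K4me3, 77.6% in peaks shared with OPCs and 64.3% in OPC-only peaks without OPC H3K4me3. The interval of the OPC-only peaks (63.0 to 65.5) overlapped that of the 14787 peaks, and those of the other classes lay above it.

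The runs had a fixed place. Of the peaks with a run, 4730 had A as the longest run and 4728 had T. The A run was left of the centre in 99.3% of the former, at a median of -55.5 bp, and the T run was left of it in 1.02% of the latter, at a median of 57.5 bp. In 9377 of 9458 peaks (99.1%) the run was thus an A run on the left or a T run on the right. Runs centred within 20 bp of the peak centre made up 0.233% of the A runs and 0.487% of the T runs. Both together, A on the left and T on the right, were found in 66 peaks (0.446%). The OLIG2 libraries were made with a low-input kit that adds a homopolymer tail to the DNA before an oligonucleotide anneals to it; the part of this step in the runs was not tested.

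**Figure D1:**
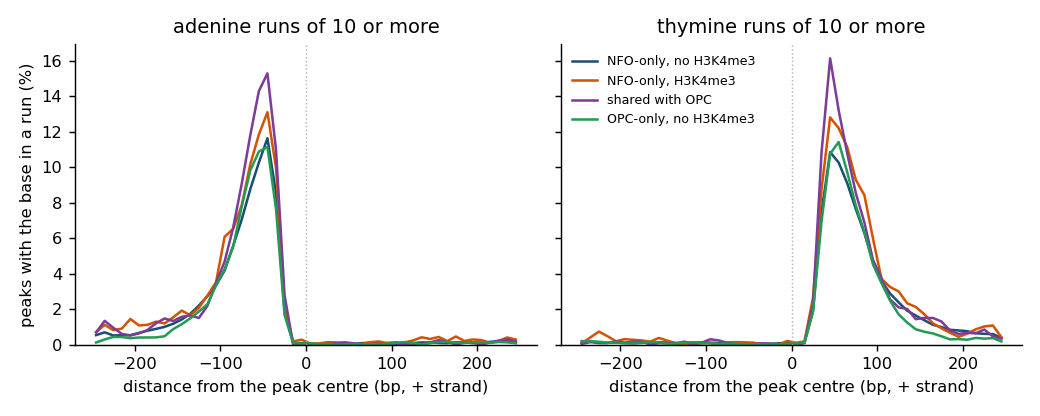
Share of peaks (%) in which a base lies inside an A or T run of 10 or more, by distance from the peak centre (bp, 10-bp bins, + strand), for the NFO-only peaks without H3K4me3 and the other OLIG2 peak classes. The share of A runs peaks left of the centre at -45 bp (11.6% of the peaks) and that of T runs right of it at 45 bp (10.9%), with few runs at the centre itself.

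Runs were more frequent where OLIG2 enrichment was higher. They were found in 58.3% of the 2592 peaks with a fold enrichment of up to 5, in 59.9% of the 7784 between 5 and 10, in 73.8% of the 4226 between 10 and 20 and in 89.7% (84.4 to 93.7) of the 185 above 20. The last interval lay above the other 3. This is a description of 1 library, since the calls themselves rest on enrichment.

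E-boxes were about as frequent as in the genome. CAGCTG or CAGATG, searched on both strands within 100 bp of the centre, was present in 3185 peaks (21.5%, 20.9 to 22.2), and in 21.1% of genome windows. CAGCTG alone was present in 8.07% (7.63 to 8.52) against 7.17% of windows, and CAGATG in 14.8% (14.2 to 15.4) against 15.1%. The palindromic E-box CAGCTG thus exceeded the genome share by more than its interval, and CAGATG did not. Any CANNTG was present in 64.0% of the peaks and in 65.7% of windows. In the peaks shared with OPCs the same search found CAGCTG or CAGATG in 35.03% (32.2 to 38.0), in the OPC-only peaks without H3K4me3 in 25.9% (24.8 to 27.05) and in the NFO-only peaks with H3K4me3 in 22.8% (20.3 to 25.5). The interval of the shared peaks and that of the OPC-only peaks lay above the interval of the 14787 peaks, whereas that of the NFO-only peaks with H3K4me3 overlapped it.

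The E-box share was higher at higher enrichment. It was 20.6% in the peaks with a fold enrichment up to 5, 20.7% between 5 and 10, 23.2% between 10 and 20 and 33.5% (62 of 185 peaks, 26.8 to 40.8) above 20. Above 20, CAGCTG and CAGATG were each present in 36 peaks (19.5%, 14.02 to 25.9). Among those 185, the 166 with a run held an E-box in 34.3% and the 19 without in 26.3% (9.15 to 51.2), which cannot be told apart at this number. Of the other motifs, the SOX letters ACAAAG were present in 16.8% of all peaks against 18.1% of windows, the NFI letters TTGGCA in 9.29% against 9.89%, the TEAD letters GGAATG in 9.45% against 10.9% and the AP-1 letters TGANTCA in 5.27% against 5.97%. The CTCF core was present in 31 peaks (0.210%) against 0.0937% of windows, and in 1.89% of the peaks shared with OPCs. CAGATG and CAGCTG can overlap other matches of CANNTG, and a match describes letters and not a bound site.

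**Figure D2:**
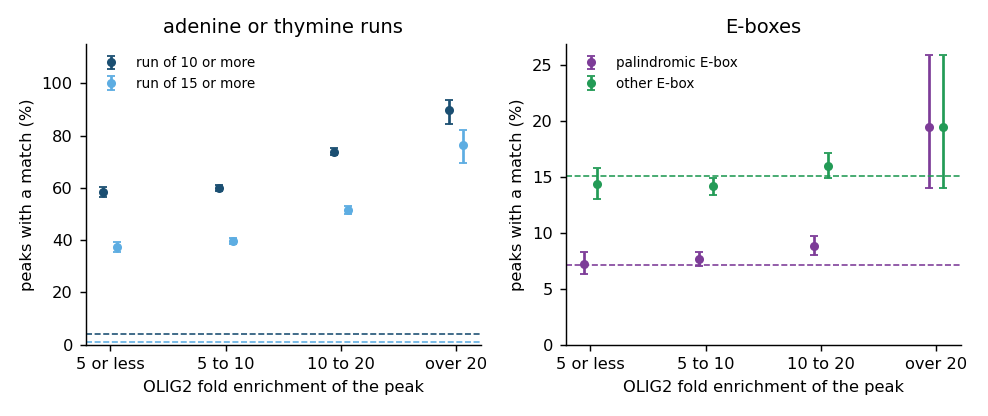
Share of NFO-only peaks without H3K4me3 (%) with an A or T run of 10 or more, the palindromic E-box or the other E-box, by bin of OLIG2 fold enrichment, with 95% exact binomial intervals as bars and all genome windows as dashed lines. The run share goes from 58.3% in the lowest bin to 89.7% in the highest, and both E-boxes reach 19.5% in the highest bin.

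Fold enrichment of the peaks ran from 2.00 to 107, with a median of 7.91. The median was 8.93 in NFO-only peaks with H3K4me3, 11.4 in peaks shared with OPCs and 7.71 in OPC-only peaks without H3K4me3, whose scale is that of another library. All but 1 of the 14787 were 236 bp wide. A fold enrichment above 5 together with a false discovery rate under 0.05, the filter of the study's methods, was met by 12195 of them, and 2592 had a fold enrichment of 5 or less. Peaks with a run had a median of 8.39 and peaks without a run one of 7.10.

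The 10 most enriched peaks lay in introns or outside genes. The highest, at 107-fold, was 112 bp wide and lay 5.68 kb upstream of Adap2, which encodes an ArfGAP with PH domains. It overlapped H3K27me3 domains of 1108 bp in NSCs and 1257 bp in OPCs and no H3K27me3 domain in NFOs. The next, at 46.2-fold, lay in an intron of Zfp292, a zinc finger protein gene, and outside H3K27me3 in every stage. Peaks far upstream of Mb21d2 (41.4-fold, 125 kb) and in an intron of Abat (37.6-fold), the enzyme that breaks down GABA, also lay outside H3K27me3 in all stages. The other 6 had fold enrichments of 30.4 to 32.1: they lay upstream of Gm34095, in an intron of the lncRNA gene Gm52440 upstream of C1galt1c1, in an intron of the glutamate receptor gene Grm8, 2.48 kb upstream of Ankrd52, in the lncRNA Gm11690 and 238 kb upstream of Ncam2, a neural cell adhesion molecule. Of all 10, only the Gm52440 peak had no A or T run within 100 bp of its centre.

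At the edge of the rule, the nearest members lay close to the peaks that would have removed them. Peaks in an intron of Efna5, in an intron of Myt1l and near Kcnh8 lay 11, 26 and 29 bp from an OPC OLIG2 peak, at fold enrichments of 9.65, 6.92 and 13.1. Peaks at H3f3a, Gm33641 and Aph1c lay 1, 28 and 30 bp from an NFO H3K4me3 peak, at 9.30, 9.79 and 10.4. Just outside, NFO peaks at Gm32334, Mast4 and Map3k8 overlapped an OPC peak by 15, 18 and 19 bp, at 7.38, 8.60 and 12.9. NFO-only peaks at Cfdp1, Chrm3 and Gnai3 overlapped H3K4me3 by 33, 41 and 41 bp, at 7.47, 3.11 and 5.76. Such edges were rare, as 121 of the 14787 lay within 1 kb of an OPC peak and 150 within 1 kb of an NFO H3K4me3 peak. The median distance was 97.5 kb to the nearest OPC peak and 45.6 kb to the nearest NFO H3K4me3 peak.

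By position, most of the peaks lay in introns or between genes. Classed by their centre, 885 (5.99%, 5.61 to 6.38) were within 1 kb of a transcription start site (TSS), 1645 (11.1%) from 1 to 3 kb of one, 6438 (43.5%) elsewhere in a gene body, 49 (0.331%) just downstream of a gene and 5770 (39.0%, 38.2 to 39.8) distal intergenic. The same classes took up 5.14%, 7.94%, 37.5%, 0.211% and 49.2% of the bases of the genome. Compared with an even spread over the genome, the peaks were thus shifted from intergenic DNA to gene bodies and their flanks, and only slightly to the first kilobase around a TSS. Introns held 52.1% of the centres (genome 42.7%), coding exons 0.609% (genome 1.37%) and untranslated or other exons of coding genes 2.61% (genome 2.26%).

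The contrast with the NFO-only peaks that carried H3K4me3 was large, and follows in part from the rule. Of those, 43.4% (40.4 to 46.4) lay within 1 kb of a TSS and 21.7% were distal intergenic. Peaks shared with OPCs took a place between, with 24.8% and 27.3%. OPC-only peaks without OPC H3K4me3, chosen in the same way in the other stage, had 6.83% (6.19 to 7.52) and 35.8% (34.5 to 37.0), close to the NFO-only peaks in both classes although the intervals of the distal share did not overlap. The median distance to the nearest TSS was 13.85 kb for the 14787 peaks, 1.33 kb with H3K4me3, 6.05 kb when shared and 12.3 kb for the OPC-only peaks. With 1 TSS per gene in place of every annotated one, the share of the 14787 peaks within 1 kb was 3.01%. Of the 885 peaks within 1 kb of a TSS, 577 were nearest to a protein-coding gene and 308 to a lncRNA gene.

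**Figure D3:**
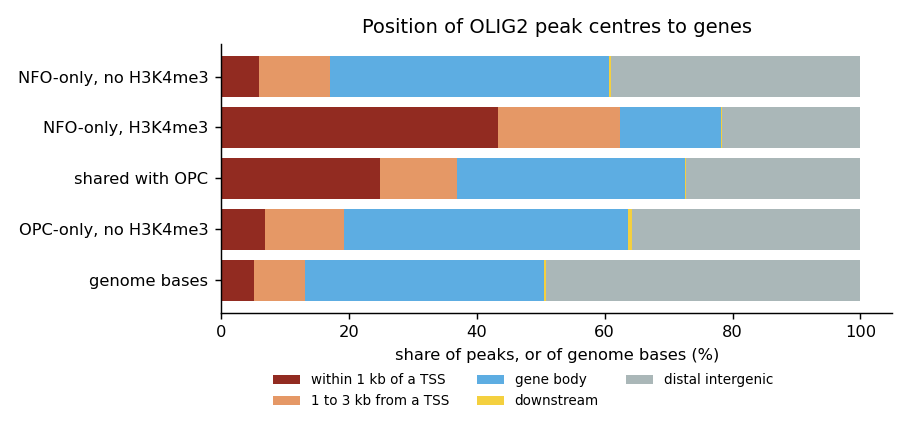
Share of peak centres (%) by position to genes for the 4 OLIG2 peak classes, beside the share of genome bases in each position. The NFO-only peaks without H3K4me3 have 5.99% within 1 kb of a TSS and 39.0% distal intergenic, against 43.4% and 21.7% for NFO-only peaks with H3K4me3.

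The peaks were spread over all autosomes at 4.96 to 7.98 per Mb, chromosome 14 being the lowest and chromosome 11 the highest. Chromosome X had 1.91 per Mb. The OPC-only peaks showed the same low density on chromosome X, at 0.612 per Mb against 1.90 to 3.14 on autosomes. Repeat-masked bases made up 39.8% of the bases of the peaks on average, and the mean GC content was 40.6%. Peaks with a run were 44.3% repeat-masked and peaks without one 31.7%.

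Target genes were taken as those with a peak centre in the gene body or up to 5 kb upstream. By this rule 9245 peaks (62.5%) had a gene, and 7437 genes had a peak, of which 5291 were protein-coding (24.1% of 21938) and 2146 lncRNA genes. Most of the protein-coding genes, 3637, had 1 peak, 1020 had 2, and 634 (2.89%) had 3 or more. Genes with a peak were long, with a median span of 61.4 kb against 22.4 kb over all protein-coding genes. The share with a peak went from 4.20% of genes spanning up to 10 kb to 89.1% of those over 300 kb. Per length the order differed: the density was 0.561 peaks per 100 kb in the shortest genes, 0.860 at 30 to 100 kb and 0.503 above 300 kb, beside 0.559 over the whole genome. The density was 0.814 at 10 to 30 kb and 0.679 at 100 to 300 kb. The share of genes with a peak thus grew with length, while the density rose up to 30 to 100 kb and fell above it.

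Most genes with the highest counts had long spans. Gm20388 had 37 peaks and Fgfr2, a fibroblast growth factor receptor gene, had 23, but their annotated spans of 4439.9 kb and 2966 kb enclose 71 and 29 other protein-coding genes. Csmd1, a complement regulator of synapses, had 13 peaks in 1648 kb, and Opcml, Cntnap2, Lingo2 and Agbl4 had 12 each in 1139.6 to 2249.9 kb. Their densities were 0.533 to 1.05 per 100 kb. Ank3 stood out per length among these 10 genes, with 12 peaks in 634 kb (1.89 per 100 kb); it encodes ankyrin G, which anchors sodium channels at axon initial segments and nodes of Ranvier. In Ank3, 11 of the 12 peaks had a run and 3 lay in NSC H3K27me3. Nrxn3, a presynaptic adhesion gene, and Naaladl2 had 11 peaks each, and 6 of those in Nrxn3 lay in NSC H3K27me3.

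**Figure D4:**
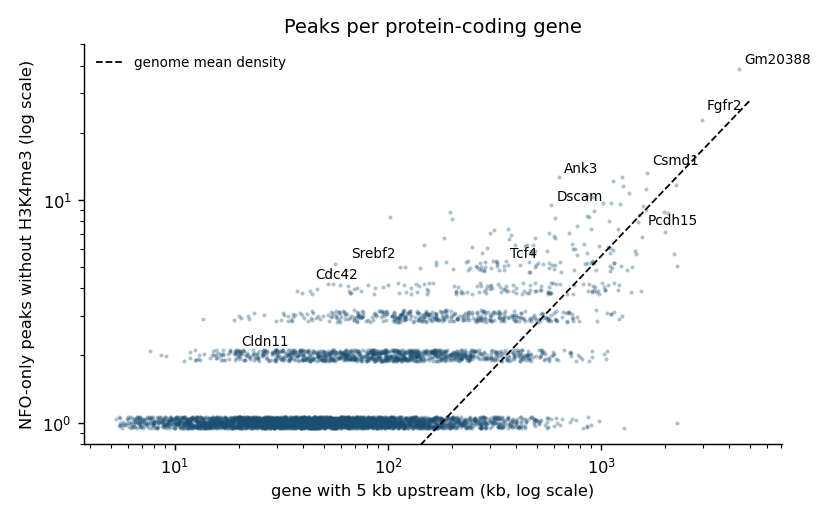
Number of NFO-only peaks without H3K4me3 per protein-coding gene against the gene's span with its upstream 5 kb (kb, log axis), for genes with at least 1 peak, points shifted slightly in height for visibility. The dashed line is the genome mean of 0.559 peaks per 100 kb; Ank3, with 12 peaks, lies above it, and Gm20388 and Fgfr2 have the most peaks over spans of 4439.9 and 2966 kb.

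Genes of the oligodendrocyte lineage were read from lists chosen with earlier results of these data known, against the 24.1% of all protein-coding genes with a peak. Of 24 myelin protein and lipid genes, 7 (29.2%) had a peak and none had 3. Cldn11, the tight junction protein of the myelin sheath, had 2 intronic peaks 5.28 and 9.96 kb from a TSS, at 7.62-fold and 6.60-fold. Both lay in OPC H3K27me3, the first also in NSC H3K27me3, and neither in NFO H3K27me3. Bcas1, a marker of oligodendrocytes that start to myelinate, had a peak 0.230 kb upstream of its TSS at 23.8-fold, among the 185 above 20. Mbp, a major protein of compact myelin, had an intronic peak at 8.79-fold, and Cnp, the 2′,3′-cyclic nucleotide phosphodiesterase of non-compact myelin, had an 8.09-fold peak in an intron that also lies in Dnajc7, with the TSS of Dnajc7 as the nearest at 0.673 kb. Mog, a protein of the outer myelin surface, had a peak in its body at 5.73-fold, and Gjc3, a connexin gene, one 2.84 kb upstream at 5.69-fold. These peaks in Bcas1, Mbp, Cnp, Mog and Gjc3 lay outside H3K27me3 in all 3 stages. Those in Bcas1, Mbp, Cnp and Mog and both in Cldn11 had a run, and the Gjc3 peak had none.

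Regulators of differentiation had a peak in 12 of 32 genes (37.5%), and 5 had 3 or more. Tcf4 and Tcf12, which encode E proteins that pair with basic helix-loop-helix factors, had 5 peaks each. In Tcf4, 4 of the 5 had a run, the highest was 17.8-fold, and none lay in H3K27me3; OPCs had 5 OLIG2 peaks elsewhere in the same gene. In Tcf12 the highest was 8.86-fold and OPCs had no OLIG2 peak. Fyn, a kinase active in early myelination, and the chromatin remodeller genes Chd7 and Chd8 had 3 peaks each, and OPCs had no OLIG2 peak in Chd7 or Chd8. Tcf7l2, a Wnt effector of differentiation, had 2. Per length the list had 0.998 peaks per 100 kb, against 0.694 over all protein-coding genes.

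Genes typical of OPCs had a peak in 12 of 20 cases, but over a median span of 77.5 kb and at 0.676 per 100 kb. Dscam had 9 peaks, 3 of them in NSC H3K27me3, Pcdh15 had 7, Lhfpl3 had 5 and Sox6 had 4, while Tnr and Sox5 had 3 each. Sox5 and Sox6 encode factors that hold precursors back from differentiation. Per length, Sox5 (0.313 per 100 kb) and Pcdh15 were below the genome mean. Of genes for the cytoskeleton and process outgrowth, 15 of 30 had a peak, over a median span of 97.3 kb and at 0.834 per 100 kb. Beside Ank3, Cdc42, a small GTPase of process outgrowth, had 4 intronic peaks in 43.0 kb (9.30 per 100 kb), at 4.16-, 5.28-, 6.32- and 16.0-fold, all with a run. Ank2 had 4 peaks, the guanine exchange factor genes Dock9 and Dock10 had 3 each, and Map1b, a microtubule-associated protein gene, had 2.

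Cholesterol synthesis genes had a peak in 6 of 16 cases (37.5%) and, at 2.63 per 100 kb, the highest density of the 11 lists. Srebf2, the transcription factor that switches the pathway on when sterols are low, had 5 of the 11 peaks in 63.2 kb, the highest at 13.7-fold, 2 of them with a run. None of the 5 lay in H3K27me3. Mvd, Fdft1 and Fdps had 1 each, from 4.19-fold in Fdps to 13.1-fold in Mvd. The list is short and its genes have a median span of 24.9 kb, and without Srebf2 it has 6 peaks in 5 genes.

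Lists of other cell types were read in the same way. Peaks were found in 4 of 13 neuronal genes (Celf4 and Syt1 with 3 each), in 4 of 11 astrocyte genes, in 3 of 12 microglial genes, in 3 of 8 endothelial genes and in 2 of 11 genes of neural stem cells. Single peaks of these lists reached 18.4-fold in Csf1r, the receptor that microglia need to survive, and 19.6-fold in Pecam1, an endothelial adhesion gene. Densities ran from 0.322 per 100 kb in neuronal to 1.04 in astrocyte genes, beside 0.998 in the differentiation list. For the cell type itself, NFO H3K4me3 lay within 1 kb of a TSS in 26 of the 32 differentiation genes, among them Sox10 and Olig2, and in 0 of 12 microglial and 1 of 8 endothelial genes, but in 7 of 24 myelin genes, where all protein-coding genes gave 40.5%. The 7 were Nfasc, Cnp, Mal, Tspan2, Ugt8a, Gjc3 and Cd9, so Mbp and Mog, genes of major myelin proteins, had no listed H3K4me3 peak there. The mark was also listed in 13 of 20 OPC genes, among them Pdgfra, the receptor on which OPCs were panned, in 9 of 13 neuronal, 5 of 11 neural stem cell and 4 of 11 astrocyte genes. By this mark, the myelin list was thus below and the OPC list above all protein-coding genes. The NFO list of H3K4me3 marked fewer genes than the lists of the earlier stages. It lay within 1 kb of a TSS in 8892 protein-coding genes, against 13166 in OPCs and 13855 in NSCs. It held more peaks than the OPC list (21736 against 18284). These covered 10.6 Mb at a median width of 255.5 bp, against 21.4 Mb and 987 bp in OPCs. Whether genes or peaks without a listed NFO H3K4me3 peak lack the mark was not tested.

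Genes with H3K4me3 within 1 kb of a TSS in NFOs had a peak more often than those without, at 33.6% (2992 of 8892) against 17.6% (2299 of 13046). They were also longer, with median spans of 33.4 and 16.9 kb. Per length the difference shrank to 0.720 against 0.658 peaks per 100 kb. The peaks thus lay in genes with promoter H3K4me3 and in genes without it, although by the rule no peak itself overlapped the mark. Of the 5291 protein-coding genes with a peak, 1692 (32.0%) also held an OPC OLIG2 peak at another place, beside 11.4% of those with none. Gene length was not held equal in this comparison.

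Clusters of peaks were few. With 3 or more centres each at most 10 kb from the next, 285 peaks (1.93%, 1.71 to 2.16) formed 91 clusters, 80 of them of 3 peaks, 10 of 4 and 1 of 5. The OPC-only peaks without H3K4me3, which were fewer and so farther apart, had 24 peaks (0.421%) in 8 clusters. The cluster of 5 spanned 17.9 kb at chr9:21313650-21331581 over Ap1m2, a clathrin adaptor gene, Gm39302 and Slc44a2, a choline transporter-like gene, with fold enrichments of 7.17 to 13.3. Of the 10 clusters of 4, those with the most enriched single peaks are named. Among them were clusters in Myo10, a filopodial myosin gene (23.6 kb, 2.54- to 23.5-fold), and in the corepressor gene Ncor1 (11.6 kb, 4.52- to 16.0-fold). Another lay in Oca2 (16.8 kb, 2.22- to 13.9-fold). A further cluster of 4 (18.3 kb, 4.74- to 14.2-fold) lay outside genes. In it, 3 peaks were 4.05 to 14.96 kb upstream of Rrn3, an RNA polymerase I factor gene, and the other was nearest to Gm49432. Each of these named clusters of 4 thus held a peak under the 5-fold filter of the study's methods. All 4 peaks in Ncor1 and all 4 upstream of Rrn3 had a run, as had 3 of 4 in Myo10 and in Oca2. In Myo10 2 of the 4 lay in NFO H3K27me3. In 74 of the 91 clusters at least 1 peak lay in a gene or in its upstream 5 kb. The share in clusters depended on the gap and on the filter: it was 0.473% with a gap of 5 kb and 0.159% among peaks above 10-fold.

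H3K27me3 was not used in choosing the peaks, and the share that overlapped it differed by stage. It was 15.4% (2276 peaks, 14.8 to 16.0) with the NSC list, 8.49% (1256, 8.05 to 8.95) with the OPC list and 1.64% (242, 1.44 to 1.85) with the NFO list. Of all 236-bp windows of the genome, 1.29%, 1.09% and 0.645% overlapped the same lists. The peaks were thus in H3K27me3 11.9, 7.81 and 2.54 times as often as genome windows, and the fall along the stages was steeper than that of the lists, which held 36069, 29417 and 12688 peaks over 25.8, 21.9 and 14.1 Mb. With the study's filter on all lists before the rule was applied, the rule gave 12510 peaks, and the shares were 8.49%, 6.24% and 1.18%. Some of these peaks are not among the 14787, of which 12195 met the filter. With 1 library per stage and unknown depth, a loss of the mark and a difference between libraries cannot be told apart. The NSCs were also cultured, unlike the other cells.

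**Figure D5:**
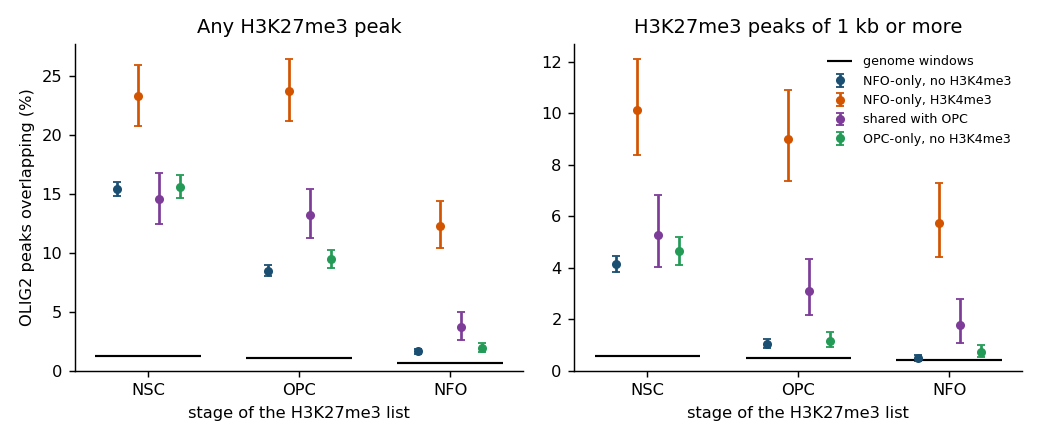
Share of peaks (%) overlapping an H3K27me3 peak of NSCs, OPCs or NFOs by OLIG2 peak class, with 95% exact binomial intervals as bars and genome windows beside them. The NFO-only peaks without H3K4me3 go from 15.4% through 8.49% to 1.64%, and the NFO-only peaks with H3K4me3 from 23.3% through 23.8% to 12.3%.

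The other classes differed in this course. NFO-only peaks with H3K4me3 overlapped H3K27me3 in 23.3%, 23.8% and 12.3% of cases in NSCs, OPCs and NFOs, so their NSC and OPC shares were alike within their intervals and the NFO share stayed above that of the 14787 peaks. Peaks shared with OPCs gave 14.54%, 13.2% and 3.68%. OPC-only peaks without OPC H3K4me3 gave 15.6%, 9.48% and 1.97%, with intervals that overlapped those of the 14787 peaks in NSCs, OPCs and NFOs.

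The overlapped domains were mostly narrow. Their median widths in the 3 stages were 391, 338 and 720 bp, where the whole lists had 341, 329 and 580 bp. With domains of 1 kb or more alone, the shares fell to 4.14% (612 peaks), 1.05% (155) and 0.494% (73), or 6.98, 2.11 and 1.202 times the share of genome windows. Against all genome windows, the excess was thus largest in NSCs for wide domains too. In NFOs the interval of the share (0.387 to 0.620) included the 0.411% of genome windows. Of the peaks with a run, 4.79%, 1.14% and 0.518% lay in wide domains of NSCs, OPCs and NFOs. Windows with a run gave 2.66%, 0.98% and 0.603%, and the intervals of the OPC and NFO peak shares included these. Peaks without a run gave 2.98% and 0.882% in NSCs and OPCs, against 0.501% and 0.476% of windows without one. Their NFO interval included the share of such windows.

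A or T runs moved with this overlap. Of the peaks with a run, 18.4%, 9.88% and 1.84% overlapped H3K27me3 of NSCs, OPCs and NFOs, and of those without a run 10.0%, 6.04% and 1.28%. Genome windows with a run overlapped the lists in 8.67%, 5.11% and 1.35% of cases, and windows without a run in 0.961%, 0.908% and 0.614%. With domains of every width and against windows of their own kind, peaks without a run therefore exceeded the genome in all 3 stages. Peaks with a run did so in all 3 too, but by a smaller ratio. The part of the runs in the overlap was not tested.

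By combination of stages, 11714 peaks (79.2%) lay in no H3K27me3 domain, 1784 (12.1%) in NSC domains alone, 654 (4.42%) in OPC domains alone, 393 (2.66%) in NSC and OPC domains, 117 (0.791%) in OPC and NFO domains and 92 (0.622%) in all 3. In NFO domains alone there were 26, and in NSC and NFO domains 7. Of the 2276 peaks in NSC domains, 485 (21.3%) were also in an OPC domain and 99 (4.35%) in an NFO domain. Of the 242 in NFO domains, 209 (86.4%) were also in an OPC domain and 99 (40.9%) in an NSC domain. The few peaks in NFO domains were thus mostly places already listed in OPCs. Median fold enrichment of OLIG2 differed little between the combinations, from 7.499 to 9.001.

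The peaks with the highest OLIG2 enrichment in each stage's domains overlapped in part with the top of all peaks. In NSC domains, beside Adap2, Gm52440, Gm11690 and Ncam2, came an intronic peak of Gm34664 at 29.999-fold. In OPC domains, beside Adap2, Gm34095 and Gm11690, came Gm33381 at 29.8-fold and an intronic peak of Itga6 at 29.5-fold. Itga6, a laminin-binding integrin subunit, also led the NFO domains, and its peak lay in a domain of 1428 bp in NSCs and in domains of 194 and 186 bp in OPCs and NFOs. The others in NFO domains were peaks upstream of Gm29931 (28.1-fold) and near Gm34535 (20.2-fold), 2.61 kb upstream of Slc36a1os (18.3-fold) and in an intron of Trpc6, a calcium channel gene (17.7-fold). Of these, the Gm34535 peak lay in an NFO domain of 892 bp and in none of NSCs or OPCs.

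Genes with most peaks in H3K27me3 in all 3 stages were Tenm4, with 3 of its 5 peaks, and Rbms1, Gm33293 and Gm46059, with 2 of 2 each. In Rbms1, 1 of the 2 was 3.415-fold, under the 5-fold filter of the study's methods. Itga6, with 1 of 3, was tied with other genes that had 1 such peak, Hoxb9 among them. It is named because its peak was the most OLIG2-enriched of these. Tenm4 encodes a teneurin needed for normal myelination of small axons. Of 20 developmental regulators that Polycomb marks in many tissues, all had NFO H3K27me3 within 1 kb of a TSS, yet only Hoxb9 and Pax2 had a peak in the gene or upstream (10.0%, beside the 24.1% of all protein-coding genes). The peak counted for Hoxb9 lay in its upstream 5 kb, in an intron of the lncRNA gene Gm51876 and 2.45 kb from the TSS of that gene. It had an OLIG2 enrichment of 11.1 and no run of 10 within 100 bp of its centre. The longest run there was 9 A, and a run of 10 A crossed the edge of that window. The peak is thus run-free only by the window used. This peak lay in H3K27me3 domains that measured 22728, 20531 and 5177 bp in NSCs, OPCs and NFOs. It also overlapped NSC H3K4me3 and lay 44 bp from an NFO H3K4me3 peak, near the edge of the rule. The peak of Pax2 lay in a domain of 401 bp in NSCs and in none later. Of these 20 genes, Hoxb9 was thus the one with a peak in H3K27me3 at all 3 stages.

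H3K4me3 of the earlier stages overlapped few of the peaks, though in NSCs a larger share than of genome windows. It overlapped 1153 of them (7.80%, 7.37 to 8.24) in NSCs, against 1.72% of genome windows, and 118 (0.798%, 0.661 to 0.955) in OPCs, against 0.967%. In NSCs, peaks with a run gave 8.86% against 5.55% of windows with a run. Peaks without a run gave 5.91% against 1.55% of windows without one. In NFO-only peaks with NFO H3K4me3 the NSC and OPC shares were 75.1% and 60.2%. These classes were split on NFO H3K4me3, so the contrast follows in part from the rule. The NSC domains that the 14787 peaks overlapped had a median width of 269 bp, where the NSC list had 553 bp. Both NSC marks together were found at 368 peaks (2.49%). In none of the 6 histone lists lay 10971 peaks (74.2%, 73.5 to 74.9).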

How the data were processed

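OLIG2 ChIP-Seq in OPCs and NFOs and H3K4me3 and H3K27me3 ChIP-Seq in NSCs, OPCs and NFOs were used as peak lists, 1 library per stage and antibody. Reads were aligned by the authors to mm10 with Bowtie2, uniquely mapped reads were kept and blacklisted regions removed. OLIG2 peaks were called with SPP in the ENCODE transcription factor pipeline and histone domains with MACS2 in broad mode, each on a single library. The deposited lists hold fold enrichment (a ratio over control) and −log10 of the FDR or p-value (q-value) per peak, as the authors' callers gave them. Read depth is not in these lists. The lists were used as deposited. The filter in the study's methods (fold enrichment over 5 for OLIG2 and over 3.5 for histone marks, FDR under 0.05) was tried as an alternative.

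Overlap meant 1 shared base or more. Positions and target genes (body and 5 kb upstream) were taken from the peak centre and GENCODE release 21 of the mouse annotation (21938 protein-coding and 13374 lncRNA genes) with 6674 further lncRNA genes of NCBI. A position class is the first that applies of within 1 kb of a TSS, 1 to 3 kb, gene body, up to 300 bp downstream, and distal intergenic. Letters were searched on both strands within 100 bp of the centre in the NCBI RefSeq GRCm38 genome, and all 201-bp or 236-bp windows laid end to end over its chromosomes gave the background. Shares carry 95% Clopper-Pearson intervals. No test was run between stages, which have 1 library each. The authors' RIP-Seq lists and the input libraries were not used. Some listed genes and sequences are not reported here.

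The peaks, gene lists and tests were chosen with earlier results of these data known. Named were the nearest genes of the 10 peaks with the highest fold enrichment, the 10 genes with most peaks, the genes of the 5 largest clusters, for each stage the 5 most enriched peaks in H3K27me3, the 5 genes with most peaks in H3K27me3 at all 3 stages, up to 6 genes a list, and the peaks nearest to the edge of the rule. The A or T runs, the run-free peaks printed as sequence and their alternatives were added after the data were seen. The work was done in Python 3.11.15 with pysam 0.24.0 for sequences, pandas 2.3.3 and numpy 2.4.6 for overlaps, SciPy 1.17.1 for intervals and matplotlib 3.10.9 for plots, and the overlap, cluster and motif steps were tested on simulated data.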

Additional observations from a re-analysis of the deposited data

How the results depend on the processing

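With a fold enrichment over 10, 4411 peaks were left, 5.51% of them within 1 kb of a TSS and 37.2% distal, over 2827 genes, 67 of them with 3 or more, with 0.159% in clusters, 23.6% with an E-box, 74.4% with a run, and 17.2% and 9.50% in NSC and OPC H3K27me3. With the filter of the study's methods on every list, 1.28% were in clusters, 65.5% had a run and 8.49%, 6.24% and 1.18% lay in H3K27me3 of NSCs, OPCs and NFOs. Without the peaks that hold a run, chosen after seeing the data, there were 5329 peaks over 3232 genes, 107 of them with 3 or more, 0.676% in clusters, 22.7% with an E-box, and 10.0%, 6.04% and 1.28% in H3K27me3. With protein-coding genes alone, 3.997% lay within 1 kb of a TSS and 49.0% were distal, and with 1 TSS per gene 3.01% lay within 1 kb. A gap of 5 kb left 0.473% in clusters, and a search of the whole peak found an E-box in 24.6%. H3K27me3 within 1 kb gave 17.5%, 9.60% and 2.00%, and domains of 1 kb or more gave 4.14%, 1.05% and 0.494%. In these, the order NSC, OPC, NFO held. The other 25 recomputed values moved by less than their interval or, for counts, by less than 1.5 times. The cause of the changes was not tested beyond the fewer peaks or domains each setting leaves. No paired analysis was possible because each stage and antibody had 1 library. Depth is unknown, so a peak absent from a list may lie under its threshold.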

Other observations

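A or T runs were also unevenly spread over the histone lists, by width. Within 100 bp of the centre, a run of 10 or more was present in 90.7% of NSC H3K27me3 peaks under 500 bp and in 8.71% of those of 1 kb or more. For NSC H3K4me3 the shares were 74.2% and 3.46%, for OPC H3K27me3 26.3% and 7.65%, and for OPC H3K4me3 8.45% and 3.12%. In NFOs they were 7.70% and 5.58% for H3K27me3, and 19.4% and 9.40% for H3K4me3. The genome share was 4.26%. The narrow NSC peaks thus had the highest shares of the 6 lists.

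Beyond the most enriched genes given in the report, some peaks without a run within 100 bp of the centre lay above 20-fold. They were in introns of Tnni3k (26.1-fold), Cacnb4 (25.8-fold, in an NSC H3K27me3 domain of 367 bp), a calcium channel subunit gene, 6330411D24Rik (24.9-fold), Col4a2 (24.4-fold) and Col4a4 (23.6-fold), both collagen IV chain genes, and Gas7 (22.8-fold). These genes were chosen after their values were seen.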
